A study of Mus musculus and Macaca mulatta with 39 samples.

Results

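Cortex of C57BL6J mouse embryos at embryonic day 11.5 (E11.5) carried 30960 loci in which the replicates gave the same answer on 2 histone marks, H3K27ac and H3K4me2, out of 80340 loci marked in any way. A locus is a stretch of the mm9 genome made by merging the called regions of the 4 E11.5 lists (each mark, replicates 1 and 2) where they overlapped or touched. Loci were sorted by which lists had a region in them, counting any shared base. They held both marks in both replicates (22939 loci), H3K4me2 in both replicates and no H3K27ac (4025 loci, called H3K4me2-only), or H3K27ac in both replicates and no H3K4me2 (3996 loci, called H3K27ac-only). The remaining 49380 loci had a mark in 1 replicate and not the other, and 36275 of them appeared in a single list.

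Acetylation of lysine 27 on histone H3 (H3K27ac) is laid down at promoters and enhancers that are in use. Dimethylation of lysine 4 (H3K4me2) sits at promoters and enhancers more broadly, including elements that are not in use in the cell at hand. Elements with H3K4 methylation and without H3K27ac are often called poised, since some of them gain acetylation later in development, whereas those with both marks are called active. The lists hold positions only and no measure of transcription, so the classes are named here by their marks.

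The series profiled embryonic cortex of mouse and rhesus by chromatin immunoprecipitation and sequencing (ChIP-seq), and its title names evolutionary change of regulatory activity in corticogenesis as the question. The mouse tissues, all of strain C57BL6J with no other allele or agent named, were cortex at E11.5, cortex at E14.5, E17.5 frontal cortex and E17.5 occipital cortex. Each tissue had 2 biological replicates, and in each replicate both marks were precipitated beside a shared input. The lists of the 3 later mouse tissues were used to follow the E11.5 loci, with 6 later lists per mark. How many embryos made up a replicate is not stated in the labels. The tissue label could not be checked against marker genes, because no mm9 annotation was used here, and for the same reason no locus below is assigned to a gene, exon or promoter.

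The E11.5 lists differed in length. H3K27ac covered 85.3 Mb in replicate 1 and 63.1 Mb in replicate 2. H3K4me2 covered 69.3 Mb in replicate 1 and 111.7 Mb in replicate 2, so that the longer list belonged to replicate 1 for acetylation and to replicate 2 for methylation. Among the 12 later lists, H3K27ac covered 107.1 to 169.3 Mb and H3K4me2 65.3 to 162.2 Mb. No read number or score accompanied a region. The sequencing depth is therefore unknown, and the length of a list is given wherever it moved with a result.

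Loci with both marks were the broad ones. Their median width was 3125 bp (quartiles 2250 and 4350 bp), against 1425 bp for H3K4me2-only loci (1150 and 1775 bp) and 1150 bp for H3K27ac-only loci (900 and 1806 bp). They made up 28.6% of all E11.5 loci and 56.8% of the merged length, or 84.8 Mb. The H3K4me2-only class held 5.01% of loci and 6.46 Mb, and the H3K27ac-only class 4.97% of loci and 5.99 Mb. Loci over 5 kb were 17.3% of the both-marks class, 0.795% of the H3K4me2-only class and 1.15% of the H3K27ac-only class. The rule itself favours this order. A both-marks locus merges regions of 4 lists and a single-mark locus those of 2, and a broad region more readily touches the other mark.

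**Figure D1:**
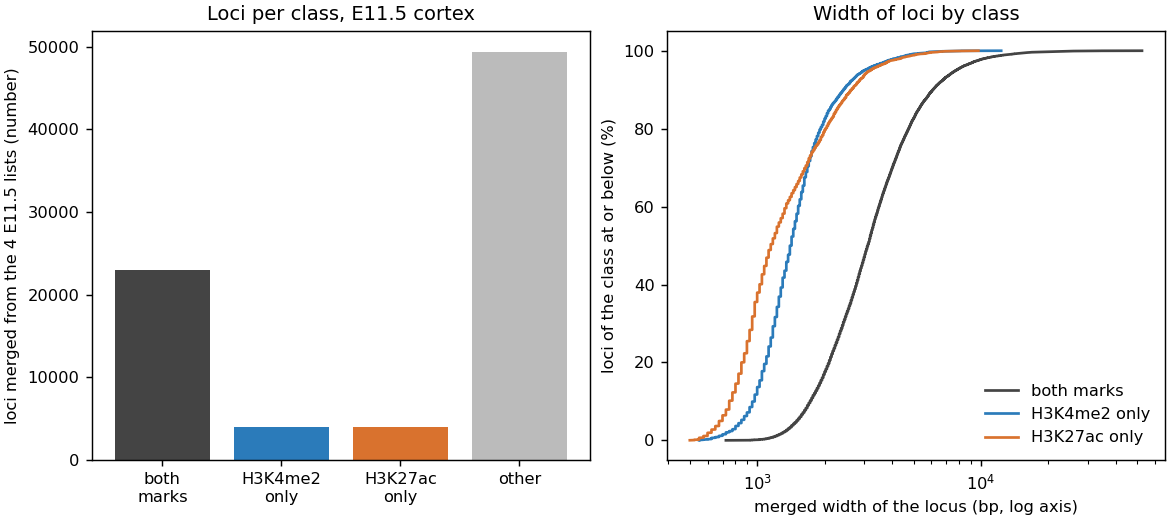
Number of E11.5 loci in each class (left, bars) and cumulative share of loci by merged width in bp on a log axis (right, 1 line per class). The both-marks curve lies to the right of the other curves, with medians of 3125 bp against 1425 and 1150 bp.

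The region widths within a locus followed the same order in each list. In loci with both marks the median H3K27ac region was 1950 bp in replicate 1 and 1550 bp in replicate 2, whereas in H3K27ac-only loci it was 900 and 800 bp. The median H3K4me2 region was 2125 and 2800 bp in loci with both marks, and 875 and 1400 bp in H3K4me2-only loci. Loci with both marks accounted for 67.5% and 69.9% of the bases of the H3K27ac lists, and for 84.9% and 69.0% of the bases of the H3K4me2 lists.

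The H3K4me2-only and H3K27ac-only classes were of nearly equal size at E11.5, at 1.01 H3K4me2-only loci for each H3K27ac-only locus. Sorted by the same rule from its own 4 lists, E14.5 cortex gave 1486 H3K4me2-only and 10500 H3K27ac-only loci, a ratio of 0.142. The ratio was 0.156 in E17.5 frontal cortex (2593 and 16633 loci) and 0.876 in occipital cortex (5596 and 6389 loci). The ratio was lowest in the tissues where both H3K27ac lists were longer than both H3K4me2 lists. At E14.5 these covered 144.5 and 107.1 Mb against 65.3 and 95.2 Mb, and in frontal cortex 169.3 and 160.3 Mb against 104.8 and 90.0 Mb. In occipital cortex they covered 161.5 and 129.3 Mb against 112.8 and 162.2 Mb. The part of list length in the class sizes was not tested.

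Class sizes were also counted with 1 E11.5 list left out. The mark of that list is then judged by its other replicate alone, so the rule is looser and growth of a class is built in. Without H3K4me2 replicate 1 the H3K4me2-only class grew to 15137 loci, and without H3K27ac replicate 1 to 8012. The H3K27ac-only class grew to 17789 loci without H3K27ac replicate 1, to 15536 without H3K27ac replicate 2 and to 7686 without H3K4me2 replicate 2. The both-marks class stayed between 23195 and 26779 loci.

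Loci just outside the rule lay between the nearest single-mark class and the both-marks class in width and in later marks. H3K4me2 in both replicates with H3K27ac in only 1 was found at 4646 loci, with a median width of 1775 bp. As a mean over the 6 later lists of a mark, 71.4% of these had H3K27ac and 74.9% had H3K4me2. H3K27ac in both replicates with H3K4me2 in only 1 was found at 3741 loci of median width 1725 bp, of which 80.2% later had H3K27ac and 48.0% H3K4me2. Just inside the rule stood members held by a short region. In 34.0% of H3K27ac-only loci the shorter of the replicate regions was under 600 bp, close to the smallest width of most lists (500 bp), compared with 17.9% of H3K4me2-only and 6.69% of both-marks loci.

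Within loci that had both marks, acetylated stretches tended to sit inside methylated ones, to a degree that differed between replicates. In replicate 2, 93.2% of H3K27ac bases lay within H3K4me2 regions and 53.4% of H3K4me2 bases within H3K27ac regions. The acetylated stretch was contained in the methylated one at 80.7% of loci, and the reverse held at 3.98%. In replicate 1 the shares of bases were nearly even, at 78.4% and 76.7%. There H3K27ac was contained at 52.4% of loci, H3K4me2 was contained at 24.6%, and each reached beyond the other at 22.8%.

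Pairing lists across replicates gave values between these. H3K27ac of replicate 1 had 88.3% of its bases in H3K4me2 of replicate 2, and H3K27ac of replicate 2 had 84.9% in H3K4me2 of replicate 1. The same mark in the other replicate gives the scale of disagreement within a mark. H3K27ac of replicate 1 had 72.3% of its bases in replicate 2 (94.3% in the other direction), and H3K4me2 of replicate 1 had 99.3% in replicate 2 (75.9% in the other direction). Restricted to bases called in both replicates of a mark, 87.3% of H3K27ac bases were in H3K4me2 and 62.3% of H3K4me2 bases were in H3K27ac. That comparison leaves out 147 loci in which the replicates of a mark shared no base.

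**Figure D2:**
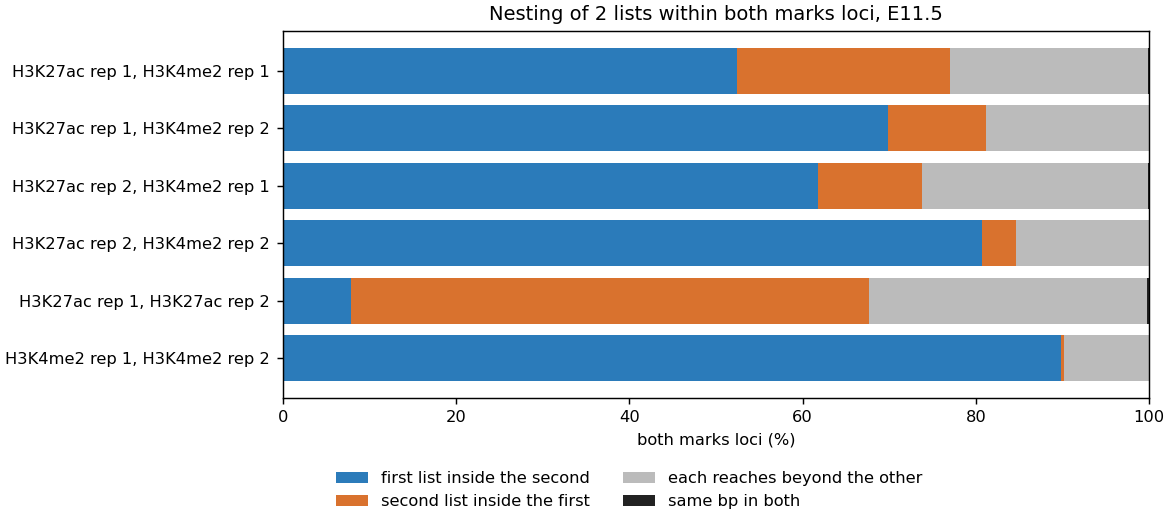
Share of the 22939 both-marks loci (%, horizontal axis) in which the stretch of the first list lay inside that of the second, the reverse, or each reached beyond the other, for 4 pairs of marks and 2 pairs of replicates. H3K27ac lay inside H3K4me2 at 52.4% of loci in the replicate 1 pair and at 80.7% in the replicate 2 pair.

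H3K4me2 was the longer mark at 64.1% of both-marks loci in replicate 1 and at 90.1% in replicate 2. It reached past the end of H3K27ac by a median of 125 bp in replicate 1 and 475 bp in replicate 2, and the centres of the marks were a median of 187.5 and 250.0 bp apart. Containment depended on width. Below 1500 bp, H3K27ac was contained at 28.6% of 1063 loci in replicate 1, compared with 61.5% of 8292 loci of 3000 to 5000 bp and 24.5% of 519 loci over 10000 bp. In replicate 2 the same groups gave 76.0%, 83.9% and 60.1%. Over 10000 bp, H3K27ac was broken into more than 1 region at 45.5% of loci in replicate 1 and at 74.2% in replicate 2.

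In later cortex, loci sorted by the same rule showed no fixed order of nesting. The share of H3K27ac bases within H3K4me2 was 60.2% and 76.3% in the replicates of E14.5, 61.8% and 60.6% in E17.5 frontal and 64.5% and 82.8% in E17.5 occipital cortex. H3K4me2 was contained in H3K27ac more often than the reverse in replicate 1 of E14.5 (42.0% against 26.6% of loci) and in replicate 2 of frontal cortex (40.5% against 37.4%). In the other 6 mark pairs H3K27ac was the mark contained more often, most narrowly in occipital replicate 1 (37.9% against 37.1% of loci). Across the 8 mark pairs the containment of H3K27ac was highest where the H3K4me2 list was longest relative to it, and the part of list length was not tested.

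Loci with both marks kept them. H3K27ac regions were present at 98.5% and 95.0% of them in the replicates of E14.5, at 96.2% and 94.3% in frontal and at 95.8% and 95.2% in occipital cortex. H3K4me2 was present at 89.0% and 96.6%, 93.8% and 91.3%, and 93.8% and 97.1% in the same order. The 12 values lay between 89.0% and 98.5%, and the lowest came from the shortest list.

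H3K4me2-only loci carried H3K27ac less often. It was found at 47.9% and 26.0% of them at E14.5, at 47.9% and 45.7% in frontal and at 44.5% and 44.4% in occipital cortex. The E14.5 replicates differed more from each other than the 4 lists of E17.5 did. H3K4me2 itself was found at 51.2% and 77.4% at E14.5, at 72.3% and 63.8% in frontal and at 70.9% and 80.9% in occipital cortex.

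H3K27ac-only loci showed the mirror image. H3K27ac was found at 67.2% and 60.2% of them at E14.5, at 74.0% and 53.9% in frontal and at 60.9% and 61.0% in occipital cortex. H3K4me2 was found at 7.96% and 17.0%, 19.5% and 13.1%, and 25.0% and 41.8% in the same order. The lowest and the highest of these H3K4me2 shares belonged to the shortest list (65.3 Mb) and the longest (162.2 Mb). Over all 80340 E11.5 loci the mean over later lists was 58.1% for H3K27ac and 47.4% for H3K4me2.

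**Figure D3:**
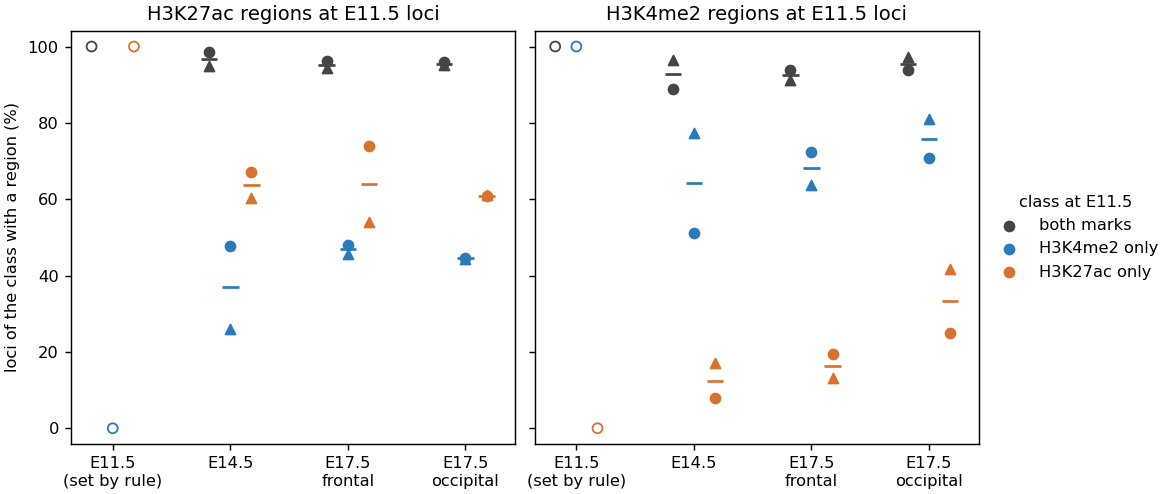
Share of E11.5 loci of each class (%) with a region of H3K27ac (left) or H3K4me2 (right) in each later list. Filled circles are replicate 1, triangles replicate 2, bars the mean of the 2, and open circles the E11.5 values fixed by the rule. Both-marks loci lie above the other classes in each later list.

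The classes were set from E11.5 lists alone, so the later lists could be used to compare them. The difference between class shares was taken within each list and tested over the 6 later lists of a mark by an exact two-sided sign-flip permutation test. Its smallest possible p is 0.03125, and p-values were Benjamini-Hochberg adjusted over the 6 comparisons. For H3K27ac, both-marks loci exceeded H3K4me2-only loci by 53.1 ± 7.89 percentage points (SD, n = 6, exact adjusted p = 0.03125) and H3K27ac-only loci by 33.0 ± 6.04 points (exact adjusted p = 0.03125). For H3K4me2, both-marks loci exceeded H3K4me2-only loci by 24.2 ± 7.66 points and H3K27ac-only loci by 72.8 ± 9.64 points (exact adjusted p = 0.03125 for each). All of these differences had the same sign in 6 of 6 lists.

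The wider both-marks loci offered more bases for a later region to touch. Among loci of 1000 to 2000 bp the excess of both-marks over H3K4me2-only loci was 45.0 points for H3K27ac and 12.7 points for H3K4me2. The excess over H3K27ac-only loci was 21.0 points for H3K27ac and 62.5 points for H3K4me2. It remained positive in 6 of 6 lists in each case, and 2 of the 4 differences were smaller by over 1.5 times. The H3K4me2 excess over H3K4me2-only loci was also 46.0 points without H3K4me2 replicate 1 of E11.5, and 40.8 points with an equal number of widest regions per later list. The H3K27ac excess over H3K27ac-only loci was 59.6 points without H3K27ac replicate 1 of E11.5.

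Between the single-mark classes, H3K4me2-only loci carried later H3K4me2 more often than H3K27ac-only loci by 48.7 ± 7.57 points (SD, n = 6, exact adjusted p = 0.03125). They carried later H3K27ac less often, with a difference of -20.1 ± 8.99 points (SD, n = 6, exact adjusted p = 0.03125). Both held in 6 of 6 lists, so each class more often had the mark it had carried at E11.5. The H3K27ac difference changed with 1 acetylation list of E11.5 left out, which loosens the rule and changes the members of both classes. With classes formed without H3K27ac replicate 1 it was 22.2 points in the other direction (exact adjusted p = 0.03125), and without H3K27ac replicate 2 it was 1.79 points (exact adjusted p = 0.5). Without H3K4me2 replicate 2 it was -32.4 points. The H3K4me2 difference was 20.3 points without H3K4me2 replicate 1 of E11.5 and 27.3 points without replicate 2 (exact adjusted p = 0.03125 for each).

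The p-values measure only the spread between these lists. The lists of a tissue share their stage and dissection, and with 1 mean per tissue the smallest p the test allows is 0.25.

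Followed locus by locus, 18451 of the 22939 both-marks loci (80.4%) had a region in all 12 later lists. Of the 49380 E11.5 loci outside the 3 classes, 6.34% did. H3K27ac was present in all 6 of its later lists at 88.3% of the class, and H3K4me2 in all 6 at 86.1%. Over all 80340 E11.5 loci these shares were 39.5% and 33.3%. Loss was rare: 99 loci had no later H3K27ac, and 44 (0.192%) had neither mark in any later list. Outside the 3 classes, 28.3% of E11.5 loci had neither mark later. Persistence was lowest in the narrowest loci. H3K27ac was in all 6 later lists at 51.3% of both-marks loci under 1500 bp, at 83.3% of those of 1500 to 3000 bp and at 94.8% of those of 3000 to 5000 bp. It was at 96.8% of those of 5000 to 10000 bp and at 95.8% of those over 10000 bp.

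The H3K4me2-only class split into several fates. H3K27ac was never called later at 1131 of the 4025 loci (28.1%), and was called in all 6 later lists at 615 (15.3%). Over all E11.5 loci these shares were 22.7% and 39.5%. Of the class, 444 loci had both marks in all 12 later lists. A further 255 loci (6.34%) stayed as they were at E11.5, with H3K4me2 in all 6 and H3K27ac in none of the later lists. At 312 loci (7.75%) H3K4me2 was lost with no later region of either mark, against 28.3% of E11.5 loci outside the 3 classes. The largest group, 1135 loci (28.2%), had H3K4me2 in all 6 later lists and H3K27ac in some.

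H3K27ac-only loci seldom became steady H3K4me2 loci. H3K27ac was in all 6 later lists at 1457 of 3996 loci (36.5%) and in none at 520 (13.0%). Over all E11.5 loci these shares were 39.5% and 22.7%. H3K4me2 was called in no later list at 2206 loci (55.2%) and in all 6 at 175 (4.38%), of which 165 had H3K27ac in all 6 as well. Of all E11.5 loci, 36.5% had H3K4me2 in no later list and 33.3% in all 6. The strict E11.5 pattern, H3K27ac in all 6 and H3K4me2 in none of the later lists, was kept by 299 loci (7.48%). Neither mark was called later at 499 loci (12.5%), against 28.3% of E11.5 loci outside the 3 classes.

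**Figure D4:**
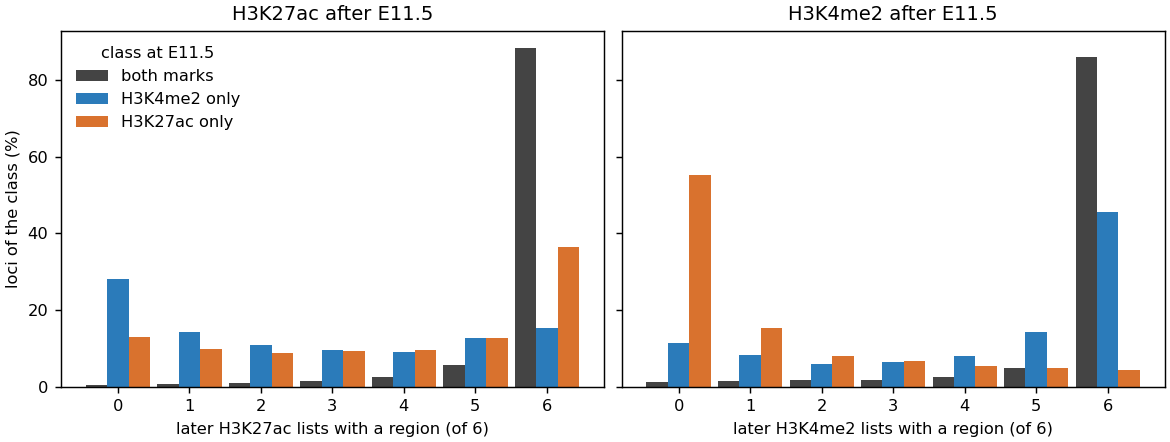
Number of later lists (of 6) with a region of H3K27ac (left) or H3K4me2 (right), horizontal axis, against the share of each E11.5 class (%), bars. The both-marks class piles up at 6 lists, while the H3K4me2-only class spreads from 0 (28.1%) to 6 (15.3%) for H3K27ac.

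Taking a whole tissue as the unit, with a mark counted only when called or missing in both replicates, H3K4me2-only loci had both marks at 15.7% of loci in E14.5, 28.0% in frontal and 30.6% in occipital cortex. They remained H3K4me2-only at 18.1%, 16.3% and 21.9%. H3K27ac-only loci had both marks at 5.91%, 11.2% and 22.1%, and remained H3K27ac-only at 35.7%, 31.2% and 15.5%. Only marks within the E11.5 edges of a locus count here. A switch from 1 mark to the other was uncommon. H3K4me2-only loci became H3K27ac-only at 1.34%, 2.93% and 0.671% of loci, and 1, 1 and 25 H3K27ac-only loci became H3K4me2-only.

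**Figure D5:**
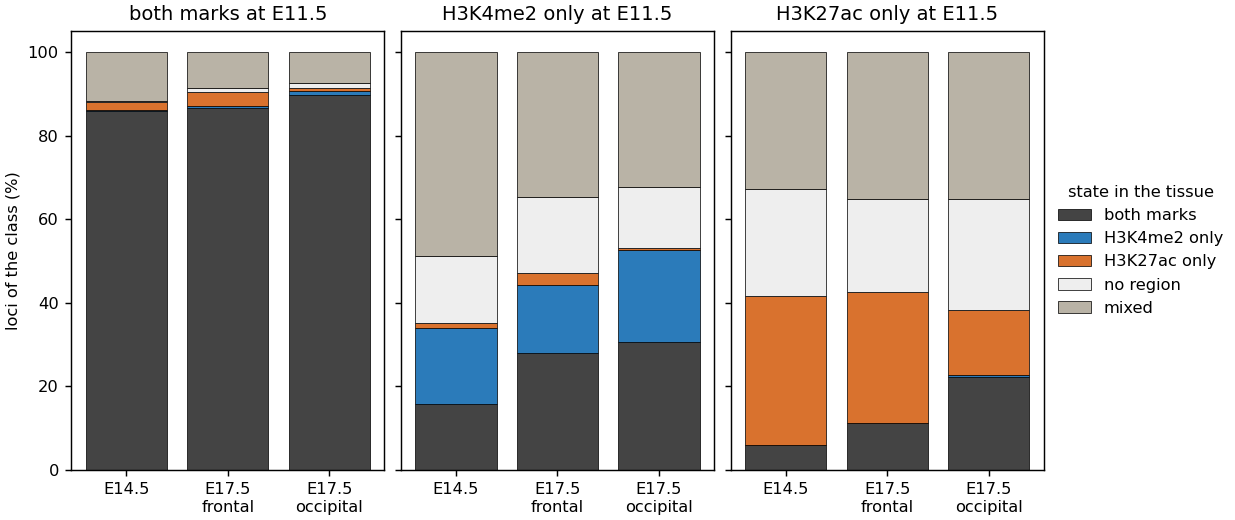
State in each later tissue (stacked bars, % of the class) of the loci of each E11.5 class. Mixed means that a mark was called in 1 replicate of the tissue and not the other. Both marks are found at 85.9% to 89.8% of the both-marks class, and at 15.7% to 30.6% of the H3K4me2-only class.

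Read backwards, most H3K27ac-only loci of later cortex did not come from the E11.5 class of that name. Of the 10500 such loci at E14.5, 1168 (11.1%) touched an E11.5 H3K27ac-only locus and 4624 touched no E11.5 locus. Of the 1486 H3K4me2-only loci at E14.5, 731 (49.2%) touched an E11.5 H3K4me2-only locus. In frontal and occipital cortex this share was 25.0% and 15.2%. Of later both-marks loci, 2.74%, 3.85% and 3.63% touched an E11.5 H3K4me2-only locus at E14.5, frontal and occipital, while 78.0%, 62.3% and 55.3% touched an E11.5 both-marks locus.

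Whether H3K4me2-only loci took up acetylation mainly by E14.5 or after it could not be resolved. The H3K27ac share was 36.9 ± 15.4% at E14.5 (SD, n = 2) and 45.7 ± 1.62% at E17.5 (SD, n = 4), a difference of 8.73 points with an exact two-sided permutation p of 0.533. The H3K4me2 share was 64.3 ± 18.5% and 72.0 ± 7.01%, a difference of 7.66 points (exact permutation p = 0.533). With 15 splits of the lists the smallest p is 0.133. Without E14.5 replicate 2 the H3K27ac difference was -2.19 points, and without replicate 1 it was 19.6 points. For H3K4me2 it was -5.45 points without E14.5 replicate 1, 20.8 points without E14.5 replicate 2 and 4.68 points without occipital replicate 2.

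The covered length of each locus was also compared between E17.5 (mean of the frontal and occipital means) and E14.5, using none of the E11.5 lists. The limma fit was made on log2(covered bp + 200) over all loci with regions in at least 2 of the 6 later lists, including loci absent at E11.5. A fold on this scale understates the change of short loci. For H3K27ac, 2.93% of 85687 loci tested were called at a limma adjusted p below 0.05 (1.94% higher and 0.992% lower at E17.5). Among both-marks loci 158 of 22691 tested were called (0.696%), 44 higher and 114 lower. Among H3K4me2-only loci 62 of 2321 were called (2.67%), 51 higher and 11 lower, and among H3K27ac-only loci 85 of 3086 (2.75%), 29 higher and 56 lower. With each list scaled to its total, 60 H3K27ac calls were made over all loci (57 higher and 3 lower), and the median of all loci moved from 0.09 to -0.14. With an equal number of widest regions per list there were 3829 (2145 higher and 1684 lower). Members that passed the filter had to have gained or kept regions in later lists. It was not passed by 1704 of the 4025 H3K4me2-only loci, 910 of the 3996 H3K27ac-only loci and 248 both-marks loci. H3K4me2-only loci had no H3K27ac at E11.5 and most later lists are from E17.5, so the filter favours members high at E17.5. The balance of 51 higher and 11 lower calls in that class therefore cannot show a gain.

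For H3K4me2, 13.8% of 57562 loci were called (13.5% higher and 0.33% lower), with a median log2 difference of 0.28 over all loci tested. Calls numbered 590 of 22272 both-marks loci (522 higher and 68 lower), 105 of 3233 H3K4me2-only loci (94 and 11) and 206 of 1180 H3K27ac-only loci (202 and 4). The median log2 difference was 0.11, 0.16 and 0.92 in these classes. After each list was scaled to its own total length, the both-marks calls were 98 higher and 268 lower, the median of all loci was -0.15 and the class medians were -0.39, -0.27 and 0.76. For H3K4me2-only loci, an equal number of widest regions per list gave 103 higher and 203 lower. Among H3K27ac-only loci the calls were 219 higher and 5 lower when scaled and 107 and 16 with an equal number, and calls over all loci were also mostly higher in both. For this mark 2816 H3K27ac-only, 792 H3K4me2-only and 667 both-marks loci did not pass the filter. H3K27ac-only loci had no H3K4me2 at E11.5 and 4 of the 6 lists are from E17.5, so the filter favours members high at E17.5.

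The calls depended on single lists. Leaving out E14.5 replicate 1, so that 1 E14.5 list remained, moved the median H3K27ac log2 difference from 0.09 to 0.34 over all loci. Among both-marks loci the median moved from -0.03 to 0.03, and among H3K27ac-only loci it was 0 in both fits. With loci held by at least 3 lists, H3K27ac-only loci gave 30 higher and 7 lower, beside 1619 higher and 102 lower over all loci. With limma, no H3K27ac locus was called without E14.5 replicate 2, frontal replicate 1, frontal replicate 2 or occipital replicate 1, with 9326, 11840, 11462 and 14275 loci at an unadjusted p below 0.05. No H3K4me2 locus was called by limma without occipital replicate 1 or replicate 2, with 6670 and 6059 loci at an unadjusted p below 0.05, while 22695 were called without E14.5 replicate 2 and 4791 without E14.5 replicate 1. In fits that made any call, the share called among both-marks loci was below that of the whole table. This held in 9 of 9 H3K27ac fits and 11 of 11 H3K4me2 fits. It also held for H3K4me2-only loci in 5 of 9 and 10 of 11, and for H3K27ac-only loci in 8 of 9 and 1 of 11. The fits share their lists and are not independent. The whole table includes loci absent at E11.5, of which 35.7% were called for H3K4me2 in the main fit.

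The 3 widest both-marks loci differed in how far the marks still covered them later. The widest was chr3:87995501-88048000, a 52500 bp locus on mm9. At E11.5 H3K27ac covered 52500 bp of it in replicate 1 and 45775 bp in replicate 2, and H3K4me2 covered 44775 and 47675 bp. In later lists H3K27ac covered 49700 to 52500 bp and H3K4me2 41125 to 46225 bp. Covered length is counted within the E11.5 locus only, so growth past its edges is not seen. At both-marks loci with a later H3K27ac region, 27.5% to 40.3% of loci per list had that region reach outside the E11.5 locus. The same share was 44.9% to 58.5% at H3K4me2-only loci and 76.1% to 86.0% at H3K27ac-only loci. At chr13:78300351-78351950, of 51600 bp, H3K27ac covered 47775 and 28125 bp at E11.5 and 51300 and 46200 bp at E14.5. In frontal cortex it covered 16475 and 26575 bp, and in occipital cortex 37925 and 51600 bp. The areas did not overlap, but each had only 2 lists, the locus was chosen for its width, and no test was made. H3K4me2 there covered 32925 and 27375 bp in frontal and 51600 bp in both occipital lists. The occipital H3K4me2 lists were also longer as a whole (112.8 and 162.2 Mb against 104.8 and 90.0 Mb), and the part of list length was not tested. The third, chr9:91242301-91285300, of 43000 bp, had 34800 and 26950 bp of H3K27ac at E11.5 and 3275 bp in occipital replicate 2, while occipital replicate 1 had 34675 bp.

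The widest H3K4me2-only locus kept its mark over a much shorter stretch. At chr9:69605901-69618225, H3K4me2 covered 11850 and 12150 of 12325 bp at E11.5, but 1250 and 1650 bp at E14.5, 1975 and 0 bp in frontal and 1075 and 500 bp in occipital cortex. All 6 later H3K4me2 lists lay below both E11.5 lists, and the single later H3K27ac region covered 950 bp, in frontal replicate 1. Width at E11.5 is what chose this locus, so its shorter later cover is described and not tested. The next named, chr2:9798176-9806325, held on to its methylation, with 6075 and 8150 bp at E11.5 and 4400 to 6400 bp in the 6 later lists. H3K27ac there appeared only in frontal replicate 1, over 1750 bp.

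Members of the H3K4me2-only class that took up acetylation in all later lists included 3 loci of about 5 to 6 kb. At chr4:82138476-82143500, H3K4me2 covered 1975 and 4450 of 5025 bp at E11.5, with no H3K27ac in either replicate. In all 6 later lists of each mark the whole 5025 bp was covered. At chr8:111771051-111777050 (6000 bp) H3K27ac went from 0 bp in both E11.5 lists to 5600 and 4675 bp at E14.5, 4976 and 5625 bp in frontal and 5625 and 4725 bp in occipital cortex. At chr1:55943076-55948325 (5250 bp) it covered 4475 and 3025 bp at E14.5 and 4300 to 5250 bp in the 4 lists of E17.5. H3K4me2 there was 1500 and 5250 bp at E11.5, 850 and 2975 bp at E14.5 and 4475 to 5075 bp at E17.5. No difference between E14.5 and E17.5 was called at these 3 loci in either mark (limma adjusted p from 0.207 to 1). Having acetylation in all later lists is what chose them, so these values describe and do not test it.

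A smaller set of H3K27ac-only loci gained methylation. At chr3:137726626-137730850 (4225 bp), H3K27ac covered 3100 and 2750 bp at E11.5 and 4000 to 4225 bp in later lists. H3K4me2 was 0 bp in both E11.5 lists, 850 and 1075 bp at E14.5, and 3800, 3600, 3875 and 3825 bp in the frontal and occipital lists. The E17.5 lists lay apart from the E14.5 lists, and the log2 difference was 1.78 ± 0.09 (SE, limma adjusted p = 0.00741), a call that ends in each fit with no call. At chr4:45765801-45769700 (3900 bp), H3K27ac covered 3650 and 2375 bp at E11.5 and the whole locus in all 6 later lists. H3K4me2 covered 3075 and 3400 bp at E14.5 and 3750 to 3900 bp at E17.5, a log2 difference of 0.24 ± 0.05 (SE) that missed the threshold (limma adjusted p = 0.0557). At chr15:86192476-86197475 (5000 bp) H3K4me2 covered 600 and 1825 bp at E14.5 and 1800, 2025, 3575 and 4950 bp at E17.5 (limma adjusted p = 0.209). These 3 loci were chosen for H3K4me2 in all 6 later lists and ranked by later covered bp. Their values and p-values therefore describe them and do not test a gain.

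Other H3K27ac-only loci stayed without methylation within their E11.5 edges. At chr8:122879026-122884650 (5625 bp), H3K27ac covered 2800 and 5625 bp at E11.5 and 3000 to 5625 bp later, with H3K4me2 at 0 bp in all 8 lists. At chr17:84455976-84460850 (4875 bp) it covered 4875 and 1900 bp at E11.5 and 4026 to 4875 bp later. On the X chromosome, chrX:96478251-96484750 (6500 bp) had 6500 and 575 bp at E11.5, 6500 bp in both E14.5 lists, 750 and 5800 bp in frontal and 4725 and 1825 bp in occipital cortex, a spread between replicates as wide as any between tissues. The widest of the class, chr7:151952576-151962325, covered 9750 and 2075 bp at E11.5, 3350 and 1625 bp at E14.5 and 0 to 2025 bp at E17.5, with no H3K4me2 in any list. The next, chr5:113573901-113582950 (9050 bp), had 9000 and 4825 bp of H3K27ac at E11.5 and 6075 to 9050 bp later. H3K4me2 there reached 1425 and 6275 bp in occipital cortex, against 0 bp in both frontal lists.

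Among the 44 both-marks loci with no later region of either mark, the longest acetylated at E11.5 were chr9:21938776-21942775, chr11:87561776-87565325 and chr7:149002001-149004900. H3K27ac covered 4000 and 2025 bp, 3300 and 2450 bp, and 2825 and 2100 bp of them at E11.5. H3K4me2 covered less, at 825 and 1425 bp, 675 and 1125 bp, and 1150 and 1200 bp. All 12 later lists were at 0 bp at each. At chr10:120156901-120160200 (3300 bp) only the acetylation went: H3K27ac covered 3125 and 750 bp at E11.5 and 0 bp in 6 later lists, while H3K4me2 covered 1625 and 3225 bp at E11.5 and 1125 to 1525 bp later.

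H3K4me2-only loci with no later region of either mark were led by chr2:28888001-28891050 (2800 and 3050 of 3050 bp at E11.5) and chr14:49707526-49710575 (2375 and 3050 of 3050 bp). All later lists of both marks were at 0 bp there.

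The classes also differed in where they lay. The median gap from an H3K27ac-only locus to the nearest both-marks locus was 17475 bp, compared with 20025 bp between both-marks loci, 28150 bp from H3K4me2-only loci and 25150 bp from unclassified loci. H3K27ac-only loci were also nearer to each other (median 61800 bp) than H3K4me2-only loci were (114888 bp). The 1-Mb window with the most H3K27ac-only loci, chr12:113000001-114000000, held 26 of them, 32 both-marks loci and no H3K4me2-only locus. The one with the most H3K4me2-only loci, chr19:44000001-45000000, held 15, with 22 both-marks loci and 1 H3K27ac-only locus. In the next, chr2:74000001-75000000, the 14 H3K4me2-only loci outnumbered the 7 both-marks loci, and there was no H3K27ac-only locus. The X chromosome held 3.60% of all E11.5 loci, 3.25% of both-marks, 2.09% of H3K4me2-only and 1.70% of H3K27ac-only loci. These positions are a description with no test.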

How the data were processed

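Mouse cortex was profiled by ChIP-seq for both marks, and 16 mouse region lists were used. The deposited files hold positions in 3 columns, in another unit than a count or signal: called intervals in bp. Bowtie 0.12.9 and the build mm9 are named, per the submitters' processing notes. The sources used here do not name the region caller or its threshold. Starts lie on a 25-bp grid, widths are at least 500 bp except for 1 region in each of 3 lists, and neighbours are at least 1025 bp apart. In 2 lists starts are offset by 1 bp. Without read numbers the depth is unknown and no counting interval could be given. Positions are 1-based. The gene tables at hand are of another build (GRCm38.p6), so the planned gene lists, markers, promoter split and sequences were not used.

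Regions were merged with an overlap of at least 1 bp. Class shares were compared by exact sign-flip tests (64 flips) in Python 3.11.15 with numpy 2.4.6, scipy 1.17.1 and pandas 2.3.3. Covered length was analysed with limma 3.58.1 (eBayes with a trend) in R 4.3.3, with 200 bp added and Benjamini-Hochberg adjustment over the whole table. On simulated data, shuffled values with 200 loci made 4-fold longer, 39% of these were recovered for H3K27ac over 85687 loci and 31% for H3K4me2 over 57562, beside 46 and 7 calls among the other loci. Figures used matplotlib 3.10.9. Named loci are the first 5 per set, of which a part is printed, namely the widest per class, and per fate those with the most covered bp. The members and lists were chosen with earlier results of these data known.

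The alternatives were another pseudocount, filter, scaling, overlap, merging distance and width range, an equal number of widest regions per list, the E11.5 lists added to the fit, the replicate number as a block, 1 mean per tissue, and leaving out each list.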

Additional observations from a re-analysis of the deposited data

Results flagged for a closer look

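Of 58 groups of 4 or 6 lists checked, 7 had a list standing apart from the rest of its group. The rule was set to flag about 1 in 20 groups by chance. Covered length cannot exceed the locus width, however, and at some flagged loci all the other lists tied. A tie of that kind meets the rule whenever the last list differs by any amount. The number of flagged groups therefore cannot be compared with that rate, and no conclusion is drawn from it. The H3K27ac share of H3K4me2-only loci was 26.0% in E14.5 replicate 2, below the 44.4% to 47.9% of the other 5 later lists. That list was the shortest later H3K27ac list, at 107.1 Mb, and its part in the value was not tested. The remaining 6 concern the 4 E17.5 lists at single loci. Frontal replicate 1 was the only one with H3K27ac at chr9:69605901-69618225 (950 bp) and at chr2:9798176-9806325 (1750 bp), both H3K4me2-only loci, and it was the longest H3K27ac list, at 169.3 Mb. Frontal replicate 2 was low at the others. H3K4me2 covered 5200 bp of chr2:9798176-9806325 in it, against 6225 to 6400 bp elsewhere. H3K27ac covered 6075 bp of chr5:113573901-113582950 against 9050 bp in each of the others. H3K4me2 covered 3750 bp of chr4:45765801-45769700 against 3875 to 3900 bp, and H3K27ac covered 3750 bp of chr15:86192476-86197475 against 4850 to 5000 bp.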

How the results depend on the processing

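The limits are these. Positions without scores leave a weak region and an uncalled one apart by a threshold that is not known, depth is unknown, and list length differed between lists and marks. Same-numbered lists of a mark shared little between the later tissues: their deviations correlated at -0.156 to 0.214 across loci. Pairing of the marks within a replicate is not covered by that check. With the replicate number as a block limma called 0 loci for H3K27ac and 0 for H3K4me2, with 10260 and 11933 at an unadjusted p below 0.05.

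With 1 mean per tissue the class differences were 53.1, 33.0 and -20.1 points for H3K27ac and 24.2, 72.8 and 48.7 points for H3K4me2 (both marks minus H3K4me2-only, both marks minus H3K27ac-only, H3K4me2-only minus H3K27ac-only), each at an exact permutation p of 0.25, the smallest possible with 3 tissues. Leaving out 1 list gave 37.4 to 60.2, 24.5 to 59.6 and -32.4 to 22.2 points for H3K27ac, and 18.8 to 46.0, 59.4 to 82.8 and 20.3 to 60.5 points for H3K4me2. Without a later list the smallest p is 0.0625. The H3K27ac difference between single-mark classes reversed without E11.5 H3K27ac replicate 1 (22.2 points) or replicate 2 (1.79 points). These settings change the members of both classes. Without replicate 1, the H3K27ac-only class takes in loci that had replicate 2 alone (13092 loci, mean later H3K27ac share 25.7%). The H3K4me2-only class takes in loci with H3K27ac in replicate 1 and H3K4me2 in both replicates (3839 loci, share 72.1%). The part of these loci in the reversal was not tested. With 1 E11.5 list left out, which loosens the rule, class counts ranged from 23195 to 26779 for both marks, 4837 to 15137 for H3K4me2-only and 4109 to 17789 for H3K27ac-only loci.

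The E17.5 minus E14.5 difference in the share of H3K4me2-only loci ranged from -2.19 to 19.6 points for H3K27ac and from -5.45 to 20.8 points for H3K4me2 over the lists left out, reversing without E14.5 replicate 2 and replicate 1. An equal number of widest regions per list gave -8.60 points for H3K4me2. The causes were not tested.

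H3K27ac calls over all loci (2514) became 61 with 1000 bp added, 215 with loci held by any list, 60 scaled to the list's total (57 higher, 3 lower), 3829 with an equal number of regions (2145 higher, 1684 lower) and 0 to 3722 without 1 list. H3K4me2 calls (7972) became 2595 with loci held by any list, 2668 with loci in at least 3 lists, 4314 with an equal number of regions (2978 higher, 1336 lower) and 0 to 22695 without 1 list. The causes were not tested.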
